A study of Homo sapiens with 10 samples.

Results

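The genes described here encode the machinery that transcribes protein-coding genes and small structural RNAs: the subunits of RNA polymerase II and III, the general transcription factors that load them, the TBP-associated factors, Mediator, the CDK-activating kinase and P-TEFb. Members were chosen by symbol from the platform annotation, which named 1 gene with a symbol starting POLR2, POLR3, GTF2 or GTF3, or TAF or MED followed by a digit, or the gene TBP, CDK7, CDK8, CDK9, CCNH, MNAT1, CCNT1 or CCNT2. This gave 68 of the 8226 genes on the array, measured by 93 of its 12625 probe sets. Each gene was represented by 1 main probe set, the one with the highest mean over all 10 arrays. The symbols also brought in genes of neighbouring complexes: TAF1A, TAF1B and TAF1C of SL1, which selects RNA polymerase I promoters, TAF5L and TAF6L of SAGA-type coactivators, the RNA-binding protein TAF15 and the pseudogene GTF2H2B.

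ST486, an established human Burkitt's lymphoma line, had been transduced for 60 h with a lentivirus that expressed an shRNA against the kinase STK38 (5 arrays) or a non-target control shRNA (5 arrays). The labels name no other treatment and 1 STK38 hairpin, so effects of that hairpin on other transcripts and effects of STK38 cannot be told apart. RNA was hybridised to Affymetrix HG-U95Av2 arrays and the deposited values are log2 signals, so a difference of 1 is 2-fold. The labels do not say whether replicates were separate cultures, so p-values here speak only of array-to-array spread, part or all of which could be technical.

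RNA polymerase II makes messenger RNA precursors, and RNA polymerase III makes transfer RNAs, the 5S ribosomal RNA and other short RNAs. At a polymerase II promoter, TFIID binds the core DNA through TBP and its TAFs, TFIIA and TFIIB join, TFIIF brings in the polymerase and TFIIE recruits TFIIH, which opens the DNA and carries the kinase CDK7. Mediator relays signals from DNA-bound activators to this assembly, and P-TEFb (CDK9 with cyclin T) releases paused polymerase into elongation. MYC, the oncogenic factor named in the series title, is known to bind the letters CACGTG with its partner MAX and to recruit P-TEFb.

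STK38 mRNA was lower with its shRNA at all 3 of its probe sets (-2.19 to -0.82 on the log2 scale), as was MYC mRNA at all 4 (-1.64 to -1.38). Of 7 B cell markers, 5 stood above array background, among them MS4A1 (log2 signal 8.69 ± 0.17 with the non-target shRNA and 8.69 ± 0.17 with the STK38 shRNA, SD, n = 5 each), while PAX5 and CD37 did not exceed it on any array; CD79A was called higher (log2 difference 0.49). The T cell markers CD3D, CD3E and CD3G were not above background on any array, and 3 others, LCK, TRBC1 and CD247, were lower with the STK38 shRNA. Of these, CD247 was above background on 1 control and 0 STK38 shRNA arrays. The mean over the 6 was 3.24 to 3.36 on the control and 2.89 to 3.04 on the STK38 shRNA arrays. STK38 shRNA replicate 4 stood apart: it correlated with the rest of its group at a mean of 0.982, where the other 4 correlated with each other at 0.995 to 0.997. It gave the lowest value of its group at 38 of the 64 members tested, where the other STK38 shRNA arrays did so at 3 to 12. The same count over all genes was not made. Its signals as a whole also differed, with an upper quartile of 3.53 (3.91 to 4.01 on all other arrays) and a median of 2.25 (2.12 to 2.17). Its mean over 6 monocyte markers was 2.21 (at most 1.99 on the other 4), over 5 epithelial markers 2.66 (at most 2.41) and over 3 fibroblast markers 2.14 (at most 2.09). The background of replicate 4 was 2.65, so its monocyte and fibroblast means lay below it; S100A8, S100A9, KRT18 and KRT19 exceeded it (2.77, 2.73, 2.81 and 2.89), as did KRT8, which exceeded background on all 10 arrays. The part of these marker levels in the results was not tested. Members whose call changed without replicate 4 are given with and without it, as are several others. In these bulk RNA samples, fewer cells of a type and less RNA per cell cannot be told apart.

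The machinery did not move as one block. Of the 68 members, 64 passed the filter on dim probe sets (a mean of at least 1.93 over all arrays) and were tested with limma; MED14, TAF6L, TAF13 and GTF2H2 did not pass, and neither these 4 nor 3 of the tested members (CCNT1, GTF2A1 and TAF4B) exceeded array background on any array. At a threshold of 0.05 on the adjusted p, hereafter "called", 13 members were higher and 9 lower with the STK38 shRNA, or 20.3% and 14.1% of those tested. Over all 5403 genes tested, 15.2% were called higher and 15.8% lower, 31.0% in all, against 34.4% of the members, so the members' share was near that of all genes (29.9% of all 7535 tested probe sets were called). The groups did not overlap on any array at 14 of the 64 members, or 21.9%, against 23.0% of all genes. The median log2 difference was 0.067 over the members and 0.019 over all genes, and the median size without sign was 0.26 against 0.19. Only MED21 among the tested members differed by 2-fold or more (1 of 64; 246 of the 5403 genes, or 4.55%). Without STK38 shRNA replicate 4, 20 members were called higher and 11 lower, or 31.3% and 17.2% of the 64, beside 21.7% and 16.9% of all genes. In either direction these were 48.4% of the members and 38.6% of all genes, so the share of members stood further above that of all genes than with every array, a gap that was not tested; all 22 members called with every array were called again. Of those 22, 13 were also called in each of the 10 fits that left out 1 array.

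**Figure D1:**
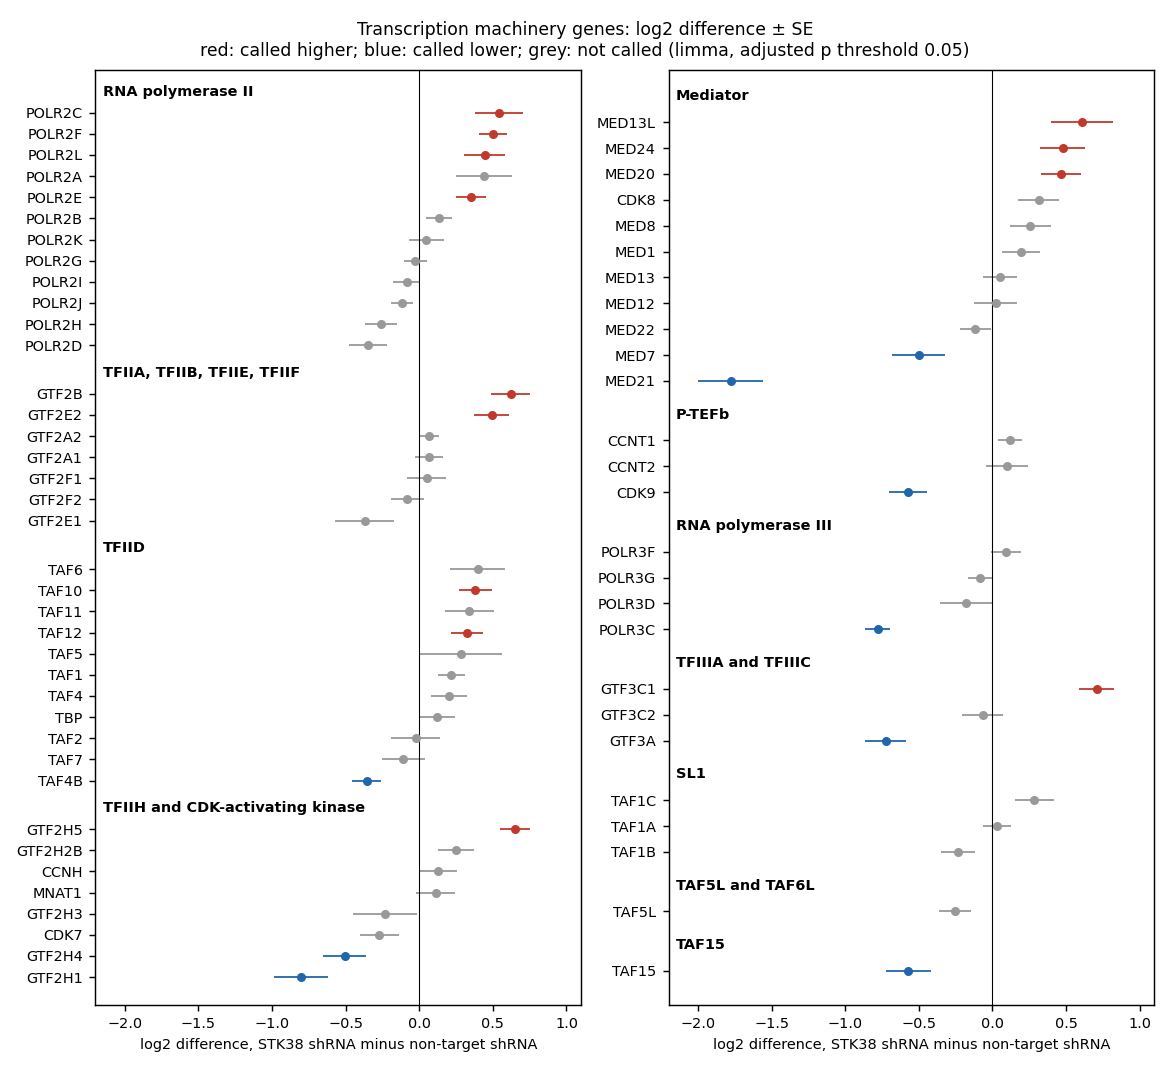
Log2 difference (STK38 shRNA minus non-target shRNA, 5 arrays each) of the 64 tested members by complex, as points with bars of 1 SE from limma; red is called higher, blue called lower and grey not called at an adjusted p of 0.05. MED21 stands alone at -1.78, and every other member lies between -0.80 (GTF2H1) and 0.71 (GTF3C1).

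Promoters of the members were read for the letters bound by MYC and MAX. RefSeq promoter windows (GRCh38.p14, 250 bases before to 50 after the first listed start) matched 53 of the 68 members. CACGTG, which reads the same on both strands, was present in 13 of them, or 24.5%, against 9.14% of the 6618 windows of genes with a single-gene probe set on the array. It stood in 3 of 7 windows of members called lower, 3 of 12 called higher, 6 of 31 not called and 1 of 3 below the filter. The longer form CCACGTGG was found in 2 windows, both of members not called. TATAAA, searched on both strands and not overlapping the former letters, was in 3 windows of members, or 5.66%, against 8.66%. The 250 bases before the start follow for 3 called members that hold CACGTG, of which GTF2H1 and POLR3C were called lower and GTF2B higher, with CACGTG and TATAAA in capitals; a match describes the letters and is no measurement of binding.
GTF2H1, chr11:18322317-18322566, plus strand: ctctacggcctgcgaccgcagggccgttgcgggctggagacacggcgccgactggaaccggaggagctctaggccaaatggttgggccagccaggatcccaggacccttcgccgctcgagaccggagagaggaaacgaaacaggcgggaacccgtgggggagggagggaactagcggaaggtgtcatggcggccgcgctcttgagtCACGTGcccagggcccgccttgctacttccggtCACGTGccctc
POLR3C, chr1:145823950-145824199, plus strand: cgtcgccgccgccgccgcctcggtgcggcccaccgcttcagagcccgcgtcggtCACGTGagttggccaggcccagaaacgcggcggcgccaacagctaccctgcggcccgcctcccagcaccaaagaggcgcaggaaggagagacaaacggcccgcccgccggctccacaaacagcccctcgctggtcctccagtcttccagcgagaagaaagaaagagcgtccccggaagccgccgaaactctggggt
GTF2B, chr1:88891568-88891817, minus strand: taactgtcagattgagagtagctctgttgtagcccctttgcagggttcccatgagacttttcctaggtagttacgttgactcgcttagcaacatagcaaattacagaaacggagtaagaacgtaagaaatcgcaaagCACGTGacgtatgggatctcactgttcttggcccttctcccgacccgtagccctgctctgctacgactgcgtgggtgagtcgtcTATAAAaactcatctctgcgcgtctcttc
GTF2H1, called lower, holds the letters 44 and 11 bases before its start. POLR3C (probe set 782_at), also called lower, holds them 196 bases before its first listed start, outside the window of its other listed start. GTF2B (probe set 37381_g_at), called higher, holds them at 113 bases and TATAAA at 29 bases before the start. These 3 windows were chosen from those that hold the letters, and a link between the letters and the direction of change was not tested.

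Among the RNA polymerase II subunits, 4 of 12 were called higher and 0 lower, or 33.3% called beside 31.0% of all genes. At an unadjusted p under 0.05, 5 were higher and 2 lower. POLR2F (probe set 36027_at), a small subunit common to RNA polymerases I, II and III, read 7.67, 7.76, 7.59, 7.73 and 7.50 on the non-target arrays (replicates 1 to 5) and 7.89, 8.25, 8.19, 8.35 and 8.07 on the STK38 shRNA arrays. Every STK38 shRNA array was above every control, and POLR2F rose 1.42-fold (log2 difference 0.50, SE 0.092, adjusted p = 0.000733). POLR2E (probe set 41332_at), another shared subunit, read 7.15, 6.73, 7.12, 6.94 and 6.95 in the controls and 7.31, 7.39, 7.56, 7.20 and 7.18 with the STK38 shRNA, again without overlap (log2 difference 0.35, SE 0.10, adjusted p = 0.0179); without STK38 shRNA replicate 3 its adjusted p was 0.0506. POLR2L (probe set 503_at), shared as well, rose by 0.44 at one probe set and 0.31 at the other (SE 0.14 and 0.10, adjusted p = 0.023 and 0.0306), with overlapping groups, and its call at the first was lost without STK38 shRNA replicate 2 (adjusted p = 0.0594) or 3 (0.0660). POLR2H, also common to the 3 polymerases, went the other way: -0.26 (SE 0.11, adjusted p = 0.0873) at its main probe set, where it was not called, and -0.33 (SE 0.096, adjusted p = 0.0168) at the other, where the groups did not overlap. Without non-target replicate 5, which read 8.44 against 8.91 or more on the other controls, the main probe set was called lower (-0.38, adjusted p = 0.00145), as it was with array weights on all 10 arrays (adjusted p = 0.00871). POLR2K, the remaining shared subunit, had a log2 difference of 0.048 (adjusted p = 0.826) and was above background on 1 control array and 4 STK38 shRNA arrays.

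POLR2A and POLR2C were the subunits of polymerase II proper with the largest positive differences. POLR2C (probe set 1594_at), which seeds assembly of the enzyme, read 5.76, 5.19, 5.39, 5.62 and 5.66 in the controls and 6.28, 6.02, 6.29, 5.49 and 6.24 with the STK38 shRNA. It rose 1.46-fold (log2 difference 0.54, SE 0.16, adjusted p = 0.0186), with 4 of the 5 STK38 shRNA arrays above every control and replicate 4 among the controls. Leaving out replicate 4 gave a difference of 0.69 (adjusted p = 0.000236). The call was lost without STK38 shRNA replicate 1 or 3 (adjusted p = 0.0526 and 0.0515) or non-target replicate 2 (0.0524), and a dimmer probe set, not above background on any array, had a log2 difference of 0.040. POLR2A encodes the largest subunit, whose C-terminal repeats are phosphorylated by CDK7 and CDK9. It read 5.77, 5.49, 5.79, 5.47 and 5.23 in the controls and 6.34, 6.09, 6.31, 5.23 and 5.99 with the STK38 shRNA, and was not called with all arrays (log2 difference 0.44, SE 0.19, adjusted p = 0.0959). Replicate 4, the lowest STK38 shRNA array, sat at the bottom of the control range, and without it POLR2A was called higher by 0.63 (adjusted p = 0.000714). With all 10 arrays, POLR2A was also called higher after median centring (adjusted p = 0.0396), after quantile normalization (0.0144) and with array weights (0.00116). POLR2B, which forms the catalytic cleft with POLR2A, had 0.14 (SE 0.088, adjusted p = 0.292). POLR2D and POLR2G form the stalk of the enzyme; POLR2D read 5.44, 4.95, 4.95, 5.20 and 5.29 in the controls and 5.03, 4.80, 4.60, 4.85 and 4.79 with the STK38 shRNA, just short of the threshold (log2 difference -0.35, SE 0.13, adjusted p = 0.0511), and was called lower without either of STK38 shRNA replicates 1 and 4 or non-target replicates 2 and 3 (adjusted p = 0.0329 to 0.0414). With all arrays, POLR2D was called lower with the 60th percentile filter (adjusted p = 0.0445), without the variance trend (0.0351) and with array weights (0.0484). POLR2G had -0.027 (SE 0.077, adjusted p = 0.847). The subunits POLR2I and POLR2J were not called at either of their probe sets: POLR2I had -0.086 and 0.22, of opposite sign, and POLR2J -0.12 and -0.15. POLR2J has near-identical gene copies that its probes may also bind.

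TFIIB and 1 subunit of TFIIE were called higher among the 7 members of TFIIA, TFIIB, TFIIE and TFIIF. This was 28.6% called, beside 31.0% of all genes. Of the 7, 0 were called lower, also at an unadjusted p under 0.05. GTF2B encodes TFIIB, which positions the polymerase at the start site. It read 5.23, 5.09, 5.18, 5.43 and 5.81 in the controls and 6.10, 5.96, 5.85, 5.98 and 5.96 with the STK38 shRNA, so that even the highest control, replicate 5, lay below every STK38 shRNA array. GTF2B rose 1.54-fold (log2 difference 0.62, SE 0.13, adjusted p = 0.00231), and a second probe set rose by 0.65 (SE 0.13, adjusted p = 0.00122), also without overlap. GTF2E2 (probe set 37295_at), the beta subunit of TFIIE, read 5.50, 5.24, 5.30, 5.13 and 5.31 and 5.93, 5.76, 5.91, 5.45 and 5.90 in the same order of groups and rose 1.41-fold (log2 difference 0.49, SE 0.12, adjusted p = 0.00532). Its partner, the alpha subunit GTF2E1, had a negative difference and was not called (log2 difference -0.37, SE 0.20, adjusted p = 0.198). Without STK38 shRNA replicate 5 it was called lower (-0.52, adjusted p = 0.0487). Without replicate 4, its lowest array, the difference was -0.20 and not called (adjusted p = 0.344). GTF2A2, the small subunit of TFIIA, varied little between arrays and had 0.067 (SE 0.068, adjusted p = 0.537) and 0.11 (SE 0.061, adjusted p = 0.218) at its probe sets. GTF2F2, of TFIIF, had -0.082 (SE 0.11, adjusted p = 0.666), and GTF2F1 and GTF2A1 had 0.050 and 0.067, neither called.

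In TFIID, 2 of 11 tested members were called higher, TAF10 and TAF12, and 1 lower, TAF4B. The share called was 27.3%, beside 31.0% of all genes. TBP, the subunit that bends the TATA region, read 3.11, 2.99, 3.16, 3.01 and 3.24 in the controls and 3.29, 3.35, 3.16, 2.90 and 3.41 with the STK38 shRNA, overlapping ranges with 0.12 (SE 0.12, adjusted p = 0.538). TAF10 (probe set 868_at), a histone-fold subunit shared with SAGA, went from 5.96 ± 0.21 to 6.34 ± 0.11 (log2, SD, n = 5 each), or 1.30-fold higher (log2 difference 0.38, SE 0.11, adjusted p = 0.0189), a call lost without non-target replicate 2 or 4 (adjusted p = 0.0522 and 0.0534). TAF12 (probe set 802_at), another histone-fold subunit, rose 1.25-fold (log2 difference 0.32, SE 0.11, adjusted p = 0.0339), and had 0.39 (SE 0.19, adjusted p = 0.156) at its dimmer probe set. The call at the main probe set was lost in 6 of the 10 fits without 1 array (without STK38 shRNA replicates 1, 2 or 5 or non-target replicates 2, 3 or 5, adjusted p = 0.0535 to 0.0864) and without the filter on dim probe sets (0.0645). TAF4B (probe set 34628_at), a TAF4 paralogue first described in B cells, read 2.22, 2.38, 2.19, 2.41 and 2.65 in the controls and 1.95, 2.13, 1.94, 2.13 and 1.91 with the STK38 shRNA. The groups did not overlap (log2 difference -0.36, SE 0.097, adjusted p = 0.0112), but the signal was not above background on any array, so no fold is given. TAF4 itself had 0.20 (SE 0.12, adjusted p = 0.254). TAF11 had 0.34 (SE 0.17, adjusted p = 0.149) at its main probe set and -0.089 at the other, and TAF7 -0.11 (SE 0.15, adjusted p = 0.665). Without STK38 shRNA replicate 4, TAF7 had 0.048 (adjusted p = 0.743).

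In 4 further TFIID subunits, TAF1, TAF4, TAF5 and TAF6, the call changed when STK38 shRNA replicate 4 was left out. In TAF1 and TAF6 it also changed under other settings that kept the array. In TAF5 it did so only with array weights, which can give a deviating array less weight and so are no separate check. TAF5, a scaffold of TFIID, read 4.20, 4.50, 4.51, 4.58 and 4.18 in the controls and 5.17, 4.88, 4.93, 3.34 and 5.09 with the STK38 shRNA: 4 STK38 shRNA arrays lay above every control and replicate 4 below the lowest one. With all arrays its difference was 0.28 (SE 0.28, adjusted p = 0.518), and without replicate 4 it was 0.62 (adjusted p = 0.000534); array weights on all arrays gave 0.53 (adjusted p = 0.00535). TAF6, which pairs with TAF9, had 0.40 (SE 0.19, adjusted p = 0.135) with all arrays and 0.58 without replicate 4 (adjusted p = 0.00223). With all arrays TAF6 was called higher after quantile normalization (adjusted p = 0.0149) and with array weights (0.00313). TAF1, the largest subunit, was higher on every STK38 shRNA array than on every control but was not called (log2 difference 0.22, SE 0.093, adjusted p = 0.0934); it was called without replicate 4 (0.24, adjusted p = 0.0439), and on all arrays without the variance trend (adjusted p = 0.0417) and with array weights (0.0378). TAF4 was called higher without replicate 4 (0.29, adjusted p = 0.0398). TAF2 had -0.023 (adjusted p = 0.943).

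**Figure D2:**
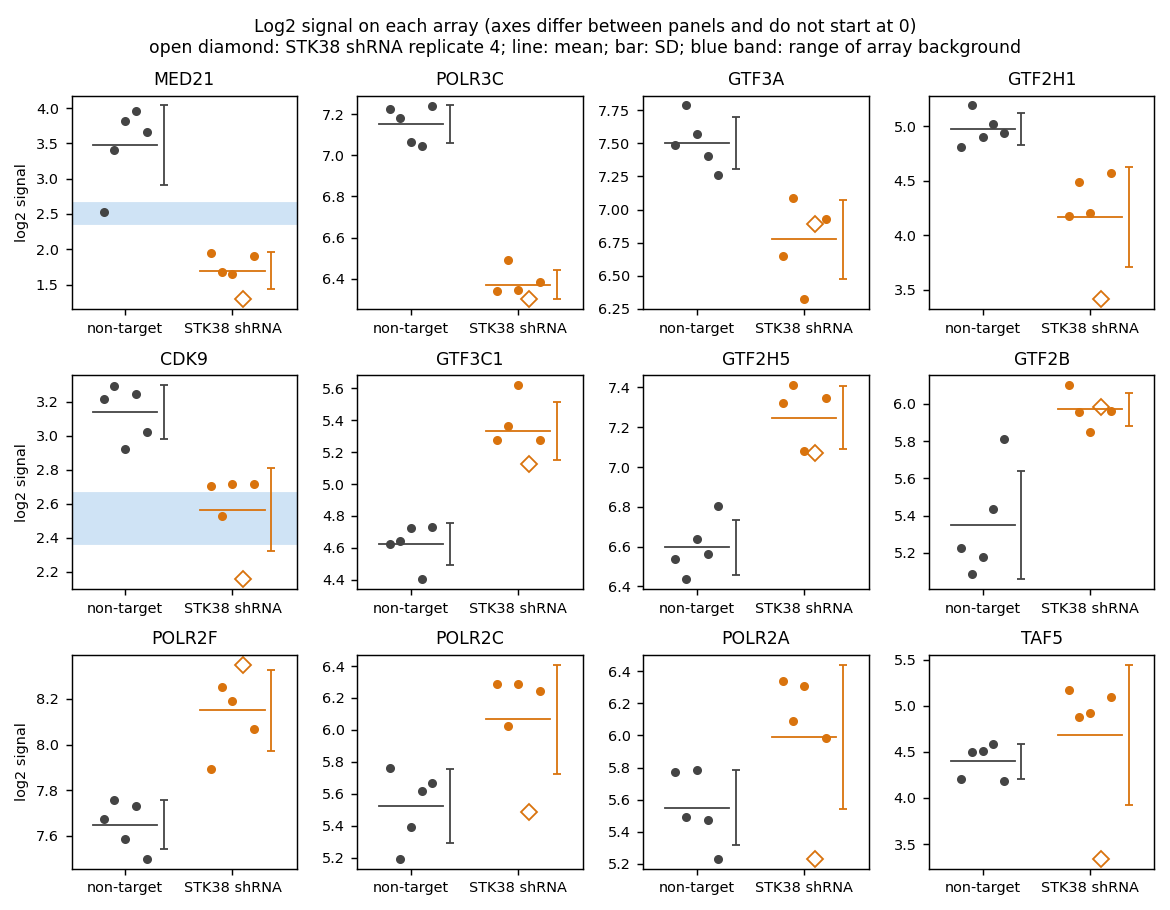
Log2 signal of 12 members on each of the 5 non-target shRNA (grey) and 5 STK38 shRNA (orange) arrays, with the mean as a line, the SD as a bar and STK38 shRNA replicate 4 as an open diamond; the blue band is the range of array background (2.36 to 2.66), drawn where it falls near the values. MED21 lies under the band on every STK38 shRNA array, POLR3C is split between the groups by -0.78 with SDs of 0.092 and 0.072, and in POLR2C, POLR2A and TAF5 replicate 4 lies apart from the other STK38 shRNA arrays.

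TFIIH was split. Of its 8 tested members with the CDK-activating kinase, 1 was called higher and 2 lower, or 37.5% called beside 31.0% of all genes. GTF2H1 (probe set 38782_at), the p62 core subunit that docks activators and repair factors, read 4.81, 5.19, 4.90, 5.02 and 4.94 in the controls and 4.18, 4.49, 4.20, 3.41 and 4.57 with the STK38 shRNA. No arrays overlapped, and GTF2H1 fell 1.75-fold (log2 difference -0.80, SE 0.19, adjusted p = 0.00411); without replicate 4, the lowest array, the difference was -0.61 (adjusted p = 0.000574). GTF2H4 (probe set 41371_at), which anchors the XPB helicase in the core, read 4.53, 4.70, 4.95, 4.83 and 4.58 and 4.41, 4.36, 4.32, 3.73 and 4.25 in the same order and fell 1.42-fold (log2 difference -0.51, SE 0.15, adjusted p = 0.0158); without replicate 4 the difference was -0.38 (adjusted p = 0.0119). GTF2H5 (probe set 39162_at), the small stabilising subunit that is mutated in a form of trichothiodystrophy, went the other way. It read 6.54, 6.44, 6.64, 6.56 and 6.81 in the controls and 7.32, 7.41, 7.08, 7.07 and 7.35 with the STK38 shRNA, with no overlap, and rose 1.57-fold (log2 difference 0.65, SE 0.10, adjusted p = 0.000176). GTF2H3, another core subunit, had -0.23 (SE 0.22, adjusted p = 0.498), a difference that was 0.00033 without replicate 4. The kinase subcomplex was not called: CDK7 had -0.27 (SE 0.13, adjusted p = 0.158) and -0.16 at its probe sets, its cyclin CCNH 0.13 (SE 0.13, adjusted p = 0.521), and the assembly factor MNAT1 0.11 (SE 0.13, adjusted p = 0.600) and 0.28. The pseudogene GTF2H2B had 0.25 (SE 0.12, adjusted p = 0.145); it has near-identical copies, GTF2H2 among them, so its signal cannot be assigned to 1 gene.

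Mediator held the member with the largest difference of the 64 tested. Of its 11 tested members, 3 were called higher and 2 lower, or 45.5% called beside 31.0% of all genes. Full separation of STK38 shRNA from control arrays was seen only in MED21, or 9.09% of these members, beside 23.0% of all genes. These gaps were not tested. MED21 (probe set 34356_at), a middle-module subunit essential for the complex, read 2.52, 3.41, 3.81, 3.96 and 3.66 in the controls and 1.94, 1.68, 1.64, 1.29 and 1.91 with the STK38 shRNA. Control replicate 1 was the lowest control, yet above every STK38 shRNA array. The measured difference was -1.78 (SE 0.22, adjusted p = 2.69e-05). Because MED21 was above background on all 5 controls and on 0 STK38 shRNA arrays, its fall is given as at least 2.03-fold, the control mean against the array background. A second, dimmer MED21 probe set was called lower as well (log2 difference -0.45, SE 0.10, adjusted p = 0.003), but was not above background on any array. MED7 (probe set 36648_at), which pairs with MED21 in the middle module, went from 4.09 ± 0.35 to 3.59 ± 0.29 (log2, SD, n = 5 each) and was called lower at the edge of the threshold (log2 difference -0.50, SE 0.18, adjusted p = 0.0494). Its call was lost in 6 of the 10 fits without 1 array (without STK38 shRNA replicates 1, 2 or 3 or non-target replicates 1, 2 or 5, adjusted p = 0.0571 to 0.133), and without non-target replicate 5 the difference was -0.35. MED7 was also not called after quantile normalization (adjusted p = 0.0787), without the filter on dim probe sets (0.0663) or with array weights (0.0768). MED1, the middle-module subunit that binds nuclear receptors, had 0.19 (SE 0.13, adjusted p = 0.310).

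Of the members outside the middle module, those called, MED20, MED24 and MED13L, were higher. The modules as such did not move together: CCNC, the kinase-module cyclin that the rule does not take, was called lower (log2 difference -0.88, adjusted p = 5.72e-05 in limma). MED20 (probe set 38296_at), of the head module, rose from 2.47 ± 0.14 to 2.94 ± 0.29 (log2 difference 0.47, SE 0.14, adjusted p = 0.0167), with 3 controls and 4 STK38 shRNA arrays above background. Without non-target replicate 1 its adjusted p was 0.0503, and without STK38 shRNA replicate 4 its difference was 0.58 (adjusted p = 0.000287). MED24 (probe set 34290_f_at), of the tail, rose from 2.84 ± 0.12 to 3.32 ± 0.35 (log2 difference 0.48, SE 0.15, adjusted p = 0.0282). Its call was lost in 6 of the 10 fits without 1 array (adjusted p = 0.0533 to 0.0779). These left out STK38 shRNA replicates 1, 3 or 5 or non-target replicates 1, 3 or 5. Without STK38 shRNA replicate 4 the MED24 difference was 0.61 (adjusted p = 0.000357). The probe set is of an f design, whose probes can bind related sequences. A slightly brighter probe set of this design, annotated to both MED24 and MIR6884, had 0.36 and was not called (adjusted p = 0.0979). MED13L (probe set 34785_at), a linker between the kinase module and the core, read 2.85, 2.67, 2.80, 2.91 and 2.91 in the controls and 3.89, 3.88, 3.05, 2.65 and 3.71 with the STK38 shRNA. On 4 STK38 shRNA arrays it was above every control, and on replicate 4 below all of them, and the call (log2 difference 0.61, SE 0.21, adjusted p = 0.0399) was lost when any array other than STK38 shRNA replicates 3 and 4 was left out (adjusted p = 0.0625 to 0.109) or the filter on dim probe sets was dropped (0.0534). Without replicate 4 the difference was 0.81 (adjusted p = 0.000334). CDK8, the kinase of that module, had 0.31 (SE 0.14, adjusted p = 0.110) and 0.13 at its probe sets, and was called higher at the first without replicate 4 (0.39, adjusted p = 0.0198). On all arrays the same probe set of CDK8 was called after median centring (adjusted p = 0.0493), after quantile normalization (0.0197) and with array weights (0.0118). MED13, the paralogue of MED13L, had 0.050 (SE 0.11, adjusted p = 0.807) and MED12 0.021 (SE 0.15, adjusted p = 0.941). Of the head subunits MED8 and MED22, the differences were 0.26 and -0.12, neither called.

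Of the 3 P-TEFb genes, 1 was called lower and 0 higher, or 33.3% called beside 31.0% of all genes. The kinase gene was the one called, and its cyclin genes were not (0 of 2 also at an unadjusted p under 0.05). CDK9 (probe set 387_at) read 3.21, 3.29, 2.93, 3.25 and 3.02 in the controls and 2.70, 2.53, 2.72, 2.16 and 2.72 with the STK38 shRNA, without overlap, a fall of 1.49-fold (log2 difference -0.58, SE 0.13, adjusted p = 0.00353). All 5 controls and 4 STK38 shRNA arrays exceeded background for CDK9; without replicate 4, the exception, the difference was -0.47 (adjusted p = 0.00159). CCNT2 had 0.096 (SE 0.14, adjusted p = 0.690) and 0.10 at its tested probe sets. CCNT1 had 0.12 (SE 0.079, adjusted p = 0.305) and was not above background on any array.

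Among the 4 POLR3 genes, 1 was called lower, with the smallest adjusted p of all members, and 0 higher, also at an unadjusted p under 0.05. The share called was 25%, beside 31.0% of all genes. Of the 5 subunits that RNA polymerase III shares with I and II, given above, 3 were called higher and 0 lower at their main probe sets. POLR3C, a subunit of the trimer that polymerase III uses for initiation, read 7.23, 7.18, 7.06, 7.04 and 7.24 in the controls and 6.34, 6.49, 6.35, 6.30 and 6.38 with the STK38 shRNA. The lowest control (7.04) lay above the highest STK38 shRNA array (6.49), the SDs were 0.092 and 0.072, and POLR3C fell 1.72-fold (log2 difference -0.78, SE 0.084, adjusted p = 6.64e-06). Its second probe set read 6.50, 6.78, 6.74, 6.73 and 6.69 and 5.74, 5.87, 5.73, 5.91 and 6.03 in the same order and fell by 0.83 (SE 0.097, adjusted p = 1.37e-05), also without overlap. POLR3F, of the same trimer, had 0.092 (SE 0.10, adjusted p = 0.587), and POLR3G, which completes it, -0.084 (SE 0.083, adjusted p = 0.522); each was above background on at most 1 array of a group. POLR3D had -0.18 (SE 0.18, adjusted p = 0.541), with a difference of 0.011 without replicate 4.

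Of the 3 factor genes that recruit RNA polymerase III, 1 was called lower and 1 higher, or 66.7% called beside 31.0% of all genes. GTF3A (probe set 36188_at), or TFIIIA, which binds the internal promoter of the 5S ribosomal RNA genes, read 7.49, 7.79, 7.57, 7.40 and 7.26 in the controls and 6.65, 7.08, 6.32, 6.89 and 6.93 with the STK38 shRNA. Every STK38 shRNA array was below every control, and GTF3A fell 1.65-fold (log2 difference -0.73, SE 0.14, adjusted p = 0.000952). GTF3C1 (probe set 35671_at), the largest subunit of TFIIIC, which binds the internal promoter of transfer RNA genes, read 4.62, 4.64, 4.72, 4.40 and 4.73 and 5.28, 5.36, 5.62, 5.13 and 5.28 in the same order. Here every STK38 shRNA array was above every control, and GTF3C1 rose 1.63-fold (log2 difference 0.71, SE 0.12, adjusted p = 0.000366). GTF3C2, of the same complex, had -0.067 (SE 0.14, adjusted p = 0.786).

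Among the genes that the symbols brought in from elsewhere, TAF15 fell. TAF15 (probe set 36822_at), an RNA-binding protein that can associate with TFIID, read 6.37, 6.26, 6.17, 6.34 and 6.05 in the controls and 5.85, 5.62, 5.93, 5.04 and 5.89 with the STK38 shRNA, without overlap, a fall of 1.49-fold (log2 difference -0.57, SE 0.15, adjusted p = 0.0109). Without replicate 4, its lowest array, the difference was -0.42 (adjusted p = 0.00435). The SL1 subunits TAF1A, TAF1B and TAF1C had 0.029, -0.23 and 0.28, and 0 of 3 were called, with TAF1C at an unadjusted p under 0.05; without replicate 4, TAF1B was called lower (-0.32, adjusted p = 0.00956) and TAF1C higher (0.38, adjusted p = 0.0101). With all arrays, TAF1C was also called after median centring (adjusted p = 0.0436), after quantile normalization (0.0441) and with array weights (0.00708). TAF1B was called with all arrays only under array weights (adjusted p = 0.00660), which can give a deviating array less weight. TAF5L had -0.26 (SE 0.11, adjusted p = 0.0907), and was called lower without STK38 shRNA replicate 5 (-0.35, adjusted p = 0.0128).

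**Figure D3:**
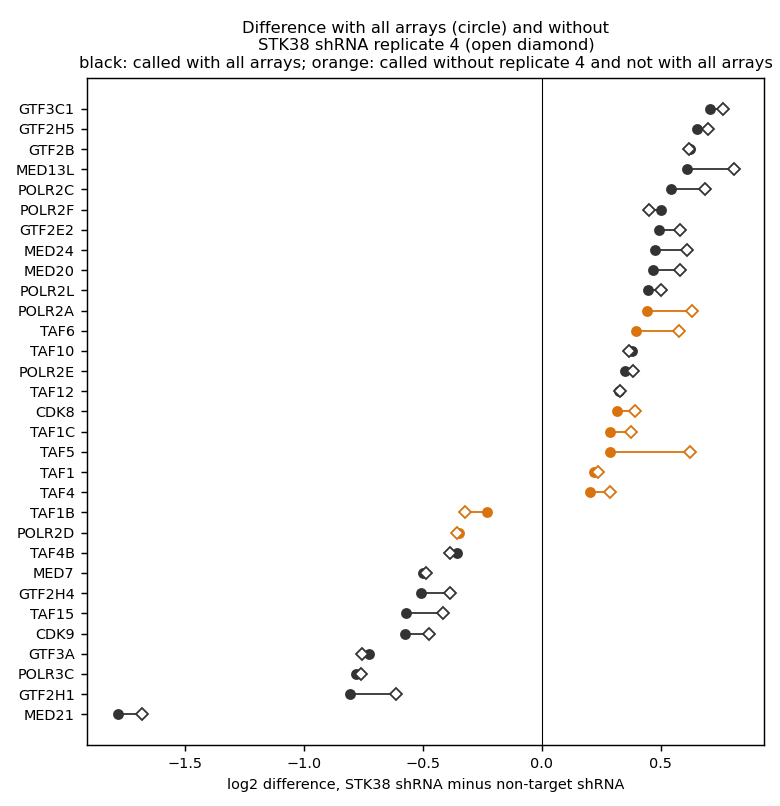
Log2 difference (STK38 shRNA minus non-target shRNA) of the 31 members called with all arrays or without STK38 shRNA replicate 4; circles are all 10 arrays and open diamonds the 9 arrays without it, black where called with all arrays and orange where called without it and not with all arrays in limma. The 22 black members keep their direction, and the 9 orange ones include POLR2A (0.44 and 0.63) and TAF5 (0.28 and 0.62).

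Genes with several probe sets allowed a check within the same arrays. Of 22 such members, 17 had more than 1 tested probe set; these had the same sign in 15, and opposite signs in POLR2I and TAF11, neither of them called. Both probe sets were called in 4 members, GTF2B, MED21, POLR2L and POLR3C, each time in the same direction; 1 of the pair was called in POLR2C, POLR2H and TAF12. The sizes differed most in MED21 (-1.78 and -0.45) and POLR2C (0.54 and 0.040), where the dimmer probe set was not above background.

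**Figure D4:**
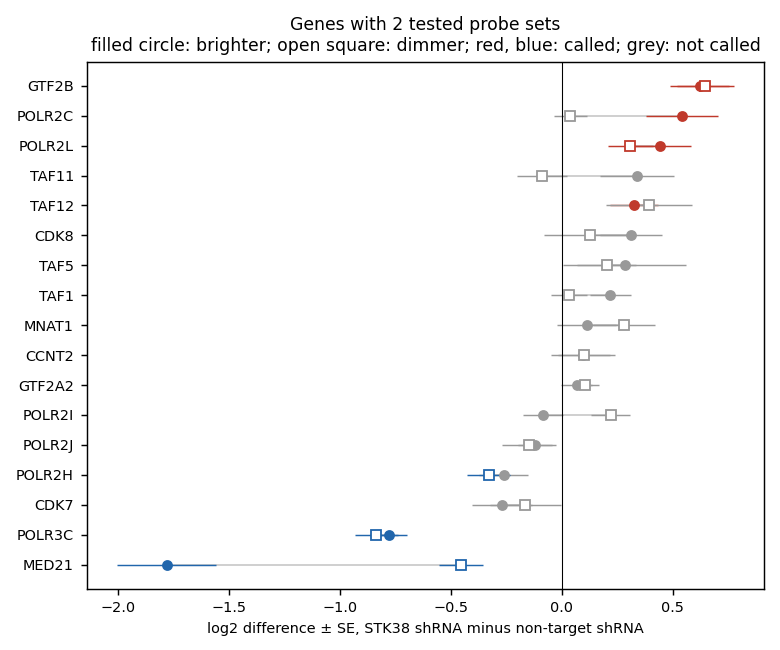
Log2 difference ± SE of the 2 tested probe sets of 17 members; filled circles are the brighter and open squares the dimmer probe set, red called higher, blue called lower, grey not called. GTF2B and POLR3C give nearly the same value at both, and MED21 and POLR2C do not.

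Genes that act with these complexes but fall outside the rule were taken from a list of elongation factors, capping enzymes, FACT and PAF subunits and RNA polymerase I and III factors. The array measured 35 of them and 32 were tested: 2 were called higher and 8 lower, or 31.3% in all beside the 31.0% of all genes, with a median of 0.037. The largest difference was that of TCEA1, the elongation factor TFIIS that rescues stalled polymerase, which fell 2.19-fold (log2 difference -1.13, SE 0.090, adjusted p = 3.89e-07). AFF1, a scaffold of the super elongation complex that contains P-TEFb, fell 1.93-fold (adjusted p = 5.87e-05). CCNC, the cyclin of the Mediator kinase CDK8, fell 1.84-fold (adjusted p = 5.72e-05), and SSRP1, of the histone chaperone FACT, 1.71-fold (adjusted p = 1.11e-05). RTF1, an elongation factor, was above background on all 5 controls and on 0 STK38 shRNA arrays, and was at least 1.39-fold lower (adjusted p = 4.03e-05). The capping enzyme RNGTT fell by 0.48 on the log2 scale, SSB, the La protein that binds polymerase III transcripts, by 0.20, and UBTF, of RNA polymerase I, by 0.70. CTR9, a subunit of the PAF elongation complex, rose by 0.44 (adjusted p = 0.0139), and HEXIM1, which holds P-TEFb inactive, was called higher (log2 difference 0.33, SE 0.095, adjusted p = 0.015) with 1 STK38 shRNA array and 0 controls above background. The TFIIH helicase genes ERCC2 and ERCC3 had 0.12 (SE 0.14, adjusted p = 0.603) and 0.33 (SE 0.23, adjusted p = 0.354). The annotation assigned 8 probe sets to several genes, one of which the rule would name. The pair that names GTF2I with its pseudogene copies was called lower (-0.37 and -0.41, adjusted p = 0.00636 and 0.00364), and the other 6 were not called.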

How the data were processed

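Total RNA of 10 samples was measured on 1-colour Affymetrix HG-U95Av2 arrays. The deposited values are log2 expression per probe set, made by the authors with GCRMA in the affy package, per the submitters' processing notes; their version and the annotation build are not given in the sources used here. GCRMA as a method models background from probe sequence and scales arrays to each other, so a change common to most genes can be hidden. The 5 arrays of each group limit the precision. Groups were taken from the labels. Genes were named through the platform annotation: 10943 probe sets had 1 gene, 545 several and 1070 none; 67 Affymetrix controls were left out.

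Probe sets with a mean at or above the 40th percentile (1.93; 7535 probe sets) were tested with limma 3.58.1 (lmFit, eBayes with trend, 8 residual degrees of freedom) in R 4.3.3, and p-values were Benjamini-Hochberg adjusted over all of them; adjusted p-values in the text come from this fit. The script was tested on simulated data. Array background was the 90th percentile of 23 control probe sets (mouse, yeast and reverse-strand). A value was above background on an array where it exceeded that level. Lower bounds of folds set the mean of the brighter group against the mean background of the other. Members and lists were chosen with earlier results of these data known. Every called member, TBP, POLR2A, CDK7, CDK9, and up to 3 uncalled members per complex with the highest mean were to be named; others are named to account for every member. Alternatives covered scaling, the filter, the variance model, array weights, the threshold, the choice of probe set, a replicate block, leaving out each array and, chosen after seeing the data, a background without the ACTB and GAPDH controls. Promoter windows came from RefSeq (GRCh38.p14), matched by symbol.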

Additional observations from a re-analysis of the deposited data

Results flagged for a closer look

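Among the 49 members picked by the naming rule above, 98 groups of 5 arrays were examined for an array that lay far from the other 4. In these, 3 were found, or 3.06%, where chance gives about 1 in 20. POLR2L read 6.85 on non-target replicate 5, below the 7.32 to 7.50 of the other controls. TAF11 read 5.81 on STK38 shRNA replicate 3, below the 5.98 to 6.04 of the other 4. GTF2H4 read 3.73 on STK38 shRNA replicate 4, below the 4.25 to 4.41 of the other 4. Members outside the rule were not examined, among them TAF5, TAF4 and GTF2A1. On the same array TAF5 read 3.34 (4.88 to 5.17 on the other 4) and TAF4 2.15 (2.51 to 2.65). GTF2A1 read 2.27 there (1.87 to 1.92 on the other 4). These 3 values also lay far from those of the other 4 arrays and are not counted in the 3.06%.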

How the results depend on the processing

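With all arrays, 13 members were called higher and 9 lower, beside 1064 and 1192 of all probe sets. All 22 called members kept their direction in the alternatives in which they were tested (TAF4B was not tested under the 60th percentile filter). A threshold of 0.01 left 5 members higher and 5 lower, with 650 probe sets higher. Array weights raised the members to 19 higher and 11 lower and the probe sets called higher to 1619. Leaving out 1 array gave 9 to 20 members higher and 8 to 11 lower, with 871 to 1548 probe sets higher and 1055 to 1269 lower, and a median difference of the members of 0.052 to 0.129. STK38 shRNA replicate 4 alone gave the upper end, 20 members higher. Scaling, the other filters, the variance model and the choice of probe set kept every count within 1.5 times. With the median of a gene's probe sets, POLR2C (0.29, adjusted p = 0.0640 in limma) and TAF12 (0.36, adjusted p = 0.0543) were not called and POLR2H was called lower (-0.30, adjusted p = 0.0309). MED7 was not called after quantile normalization, without the filter or with array weights, and MED13L and TAF12 were not called without the filter. With all arrays kept, median centring added CDK8, POLR2A and TAF1C, quantile normalization these and TAF6, the 60th percentile filter POLR2D, no variance trend POLR2D and TAF1, and array weights CDK8, POLR2A, POLR2D, POLR2H, TAF1, TAF1B, TAF1C, TAF5 and TAF6. Equal replicate numbers did not pair the arrays: deviations of same-numbered arrays correlated at -0.214 to 0.192, and 1 of 5 arrays correlated best with its own number. A replicate block gave 13 members higher and 11 lower, with 989 and 1170 probe sets, adding POLR2A, POLR2D and POLR2H and losing TAF12. With a background set without the ACTB and GAPDH controls, chosen after seeing the data, 50 rather than 45 members exceeded it on every array and 3 rather than 7 on none, and the bound for MED21 was 2.69-fold. Signals near background, such as those of MED20, HEXIM1 and TAF4B, limit what their differences show, and dim members below the filter were not tested.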
